A study of Mus musculus with 2 samples.

Results

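The cells described here are the red cells, erythrocytes and reticulocytes, of 2 mouse hippocampus libraries. They were chosen by a measured value: a cell barcode was taken when it held at least 500 unique molecular identifiers (UMIs, the tags that count single RNA molecules) and at least 50% of them came from the adult globin genes Hba-a1, Hba-a2, Hbb-bs and Hbb-bt. This gave 254 of 18754 barcodes in all. They were 24 of 12306 barcodes in library 1, or 0.195% (exact Clopper-Pearson 95% interval 0.125 to 0.290%). They were 230 of 6448 barcodes in library 2, or 3.57% (3.13 to 4.05%). No upper or lower limit was set on genes per barcode. Since globin share chose these barcodes, it is described below and supports nothing, and the genes compared are those other than haemoglobins.

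The study made droplet-based single-cell RNA libraries (10x Genomics 3' chemistry, version 3) from the hippocampus of wild-type male C57BL/6 mice aged 10 weeks, to ask how the way of releasing brain cells changes their RNA. Cells were freed either with enzymes (30 minutes, 37 °C) or mechanically (4 °C), then cleaned of debris and myelin on a Percoll gradient, and each library is 1 pool of 3 mice. No label says which of the libraries had which treatment, so both stay unassigned, neither stands for a method, and each is given on its own. The sources used here do not say whether blood was flushed from the vessels. With 1 pool per library there is no replicate and no test, and every 95% interval reflects the number of counts alone.

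Red cells fill themselves with haemoglobin, a carrier of oxygen made of alpha and beta globin chains that each hold an iron-bearing haem. A reticulocyte is a young red cell that has expelled its nucleus but still holds RNA and some organelles, and it clears both, partly by ubiquitin marking and autophagy, on the way to the erythrocyte. Its transcription has stopped, so its RNA is what the erythroblast left behind. In brain samples red cells come with the blood held in the vessels.

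The promoters of the main globin genes and of Alas2 are shown because the globins chose the barcodes and Alas2 is the main gene used to check their label. Each line gives the 250 bases before the start of transcription, 5′ to 3′ on the gene's strand, from RefSeq on GRCm38.p6. They lie at chr7:103827929-103828178 (minus strand) for Hbb-bs, chr7:103813924-103814173 (minus strand) for Hbb-bt, chr11:32283422-32283671 (plus strand) for Hba-a1 and chrX:150547167-150547416 (plus strand) for Alas2. Capitals mark matches, on either strand, to 4 short motifs. The GATA motif was searched as AGATAA or AGATAG, and also as TGATAA or TGATAG. The others were searched as CACCC, as CCAAT and as TATAA.
Hbb-bs: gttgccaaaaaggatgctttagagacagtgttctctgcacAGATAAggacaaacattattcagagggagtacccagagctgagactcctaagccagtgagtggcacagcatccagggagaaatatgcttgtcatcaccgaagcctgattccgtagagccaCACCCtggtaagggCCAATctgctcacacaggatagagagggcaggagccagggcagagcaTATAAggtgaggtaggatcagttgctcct
Hbb-bt: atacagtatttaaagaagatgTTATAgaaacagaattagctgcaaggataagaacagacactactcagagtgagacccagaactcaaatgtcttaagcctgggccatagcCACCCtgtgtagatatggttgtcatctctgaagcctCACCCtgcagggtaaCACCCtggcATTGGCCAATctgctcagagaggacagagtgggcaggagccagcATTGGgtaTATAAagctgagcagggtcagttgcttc
Hba-a1: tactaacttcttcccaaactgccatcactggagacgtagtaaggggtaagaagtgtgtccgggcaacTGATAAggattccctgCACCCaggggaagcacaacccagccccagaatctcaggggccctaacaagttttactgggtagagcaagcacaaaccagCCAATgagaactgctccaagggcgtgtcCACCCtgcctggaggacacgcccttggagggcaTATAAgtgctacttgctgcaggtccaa
Alas2: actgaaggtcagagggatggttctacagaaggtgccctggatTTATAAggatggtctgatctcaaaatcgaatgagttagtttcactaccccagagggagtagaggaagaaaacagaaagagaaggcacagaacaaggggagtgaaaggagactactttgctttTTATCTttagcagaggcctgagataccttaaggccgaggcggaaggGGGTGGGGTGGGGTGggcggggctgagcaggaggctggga
Hbb-bs held 1 match to each motif. Hbb-bt held 3 CACCC, 3 CCAAT and 2 TATAA matches and 0 GATA matches in this window. Hba-a1 held 1 GATA, 2 CACCC, 1 CCAAT and 1 TATAA match, and the window of Hba-a2, shifted by 3 bases, was identical over all 247 bases compared. Alas2 held 1 GATA and 3 CACCC matches and 0 CCAAT matches, and its 2 TATAA matches overlap on opposite strands. In the globin genes a TATAA match lay close to the start, at -29 to -25 in Hbb-bs, -28 to -24 in Hbb-bt and -27 to -23 in Hba-a1. Of 32851 RefSeq promoter windows of this length, 26.5% held a GATA match, 52.0% CACCC, 33.8% CCAAT, 22.8% TATAA, and 11.8% both GATA and CACCC, so such matches are common, and each is a description and not a site of binding.

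The haemoglobin-rich barcodes stood apart from the rest by their choice. Adult globins took 89.8% of the UMIs of the median member of library 1 (50.3 to 93.5%) and 94.4% of the median member of library 2 (51.0 to 97.8%). The median share in all other barcodes was 0% and 0.0493%. Few barcodes lay between. In library 1 the nearest barcode outside the limit held 34.4% globin with 4 Alas2 UMIs, and the nearest inside held 50.3% with 6 Alas2 UMIs. In library 2 the pair just outside held 49.4% and 49.6%, with Alas2 in 1 of them, and 6 just inside held 51.0 to 54.4%, with Alas2 in 3. The members carried 97.6% of all adult globin UMIs of library 1 and 97.9% of those of library 2. The libraries share 19 barcode sequences, and 1 member of library 2 has a barcode that also occurs in library 1, where it is no member.

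The members were rich in UMIs and poor in kinds of RNA. The median member held 4109.5 UMIs in library 1 (531 to 7668) and 11668 in library 2 (528 to 21781), against 1254 and 1486.5 in all other barcodes of the same library. It held 233 genes in library 1 (127 to 1720) and 182.5 in library 2 (46 to 2998). Thinned to 500 UMIs each, with no barcode left out, the medians were 50 genes in members and 365 in other barcodes of library 1, and 25.5 and 308 in library 2. The gap was smaller among non-haemoglobin UMIs alone. At 100 non-haemoglobin UMIs the medians were 77 and 81 genes in library 1 and 57 and 77 in library 2, where 1 member was too shallow. The RNA to be described is small: 17368 non-haemoglobin UMIs over the 24 members of library 1 (median 406 each) and 171314 over the 230 of library 2 (median 565).

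**Figure D1:**
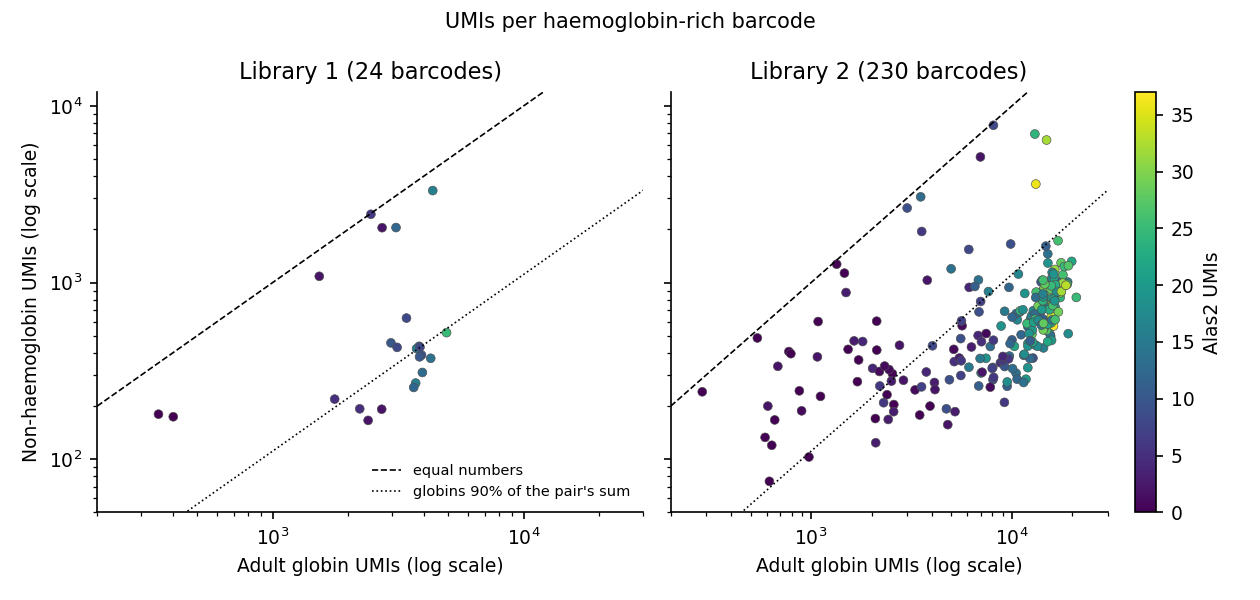
Adult globin UMIs (x axis) against non-haemoglobin UMIs (y axis), both on log scales, for each haemoglobin-rich barcode of library 1 (24 points) and library 2 (230 points). Colour gives the Alas2 UMIs of the barcode, the dashed line equal numbers and the dotted line a globin share of 90%; barcodes with more globin hold more Alas2, and those near the dashed line hold from 50.3% globin in library 1 and 51.0% in library 2.

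Both alpha and both beta globins were present. In library 1 the members held 45182 UMIs of Hbb-bs, 8993 of Hbb-bt, 10658 of Hba-a1 and 8493 of Hba-a2. In library 2 these were 1176629, 245305, 486080 and 370463. Alpha globins made up 26.1% of adult globin UMIs in library 1 (members 18.7 to 53.3%) and 37.6% in library 2 (14.9 to 67.1%). Hba-a1 held 55.7% and 56.7% of the alpha globin UMIs, with an SD over members of 2.52 percentage points in both libraries. This split is uncertain, since the Hba-a1 and Hba-a2 transcripts are identical at 283 of 284 aligned bases of their last 300, whereas Hbb-bs and Hbb-bt are identical at 262 of 296. The alpha share would be too low if reads that fit both alpha genes went uncounted, which was not checked. The embryonic globins Hbb-bh1, Hbb-bh2 and Hba-x had 0 UMIs in both libraries, and Hbb-y had 0 UMIs in the members of library 1 and 3 in those of library 2. The theta globins were rare, with 2 UMIs of Hbq1a and 4 of Hbq1b in library 1, and 48 and 42 in library 2.

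The label was checked against genes the rule did not use. Alas2, the first and rate-limiting enzyme of erythroid haem synthesis (chrX:150547375-150570638, GRCm38), had a UMI in 22 of 24 members of library 1 and 205 of 230 of library 2, or 89.1%. Bpgm, the enzyme that makes the phosphate compound that lowers haemoglobin's hold on oxygen (chr6:34476207-34505613), had one in 22 and 176, or 76.5%. Alas2 ran from 0 to 25 UMIs per member in library 1 (median 8.5) and from 0 to 37 in library 2 (median 13), and Bpgm from 0 to 31 (median 10.5) and from 0 to 55 (median 9). Both were found in 21 of 24 members (87.5%, exact interval 67.6 to 97.3%) and 175 of 230 (76.1%, 70.0 to 81.4%). For background, barcodes with microglia markers, which should lack Alas2, had an Alas2 UMI in 0.0797% of 1255 barcodes in library 1 and 0.305% of 2951 in library 2, and a Bpgm UMI in 2.47% and 3.96%. Their median non-haemoglobin UMIs were 1943 and 4376, above those of the members. Neither gene was seen in 1 member of library 1 (576 UMIs) and in 24 of library 2 (median 1817 UMIs). Members with both genes were deeper, with medians of 4171 and 13669 UMIs. Tfrc, the transferrin receptor that marks erythroblasts and the youngest reticulocytes, had a UMI in 0 of 24 members and in 7 of 230 (3.04%), beside 3.43% and 4.37% of the deeper microglia-marked barcodes. Per 1000000 non-haemoglobin UMIs it stood in library 2 at 81.7 in the members (interval 44.7 to 137), on 14 UMIs with 35.7% from 1 member, at 12.5 in microglia-marked barcodes and at 45.6 in all other barcodes. The defining genes of red cells were thus present in most members of both libraries, and several genes of their precursors were at 0 or rare, as given further on.

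Levels of single genes were set against all other barcodes of the same library. A level is the number of UMIs of a gene per 1000000 non-haemoglobin UMIs, summed over barcodes, written below as CPM. These 3' libraries count 1 tag per molecule whatever the length of the transcript, so levels of different genes can be set side by side. A gene was considered where the mean of both levels was at least 50 CPM, and was counted as higher or lower where the whole 95% interval of the ratio (exact, for the ratio of 2 Poisson counts) lay past 2-fold. In library 1, 137 of 4040 genes were higher (3.39%) and 3 lower (0.0743%). There 1 UMI in the members is 57.6 CPM, so 2 UMIs, at 115 CPM, brought a gene in whatever its level elsewhere. A gene at 0 UMIs in these members has a 95% interval up to 212 CPM. It could be counted as lower only at more than about 2 times that level in other barcodes. Counts of higher and lower genes in library 1, and in its lists, carry both limits. In library 2, 177 of 2355 were higher (7.52%) and 334 lower (14.2%). Of 1662 genes considered in both, 97 were higher in both, 2 lower in both and 7 opposite. The median log2 ratio over all genes considered was 0.15 in library 1 and -1.10 in library 2, and the gene lists are read beside these values. Genes at 0 UMIs enter these medians through the 1 CPM added to each level, and with them set at 3 counts instead the medians were 0.24 and -1.10. The denominator and the choice of members both move this split. Members of at least 30% globin gave 165 lower genes in library 2, and those of at least 75% gave 738. Per 1000000 of all UMIs, haemoglobin included, 37 genes were higher and 924 lower in library 1, and 22 higher and 1467 lower in library 2. That scaling moves the median log2 ratio to -2.16 in library 1 and -4.65 in library 2. With mitochondrially encoded UMIs also left out of the denominator, library 2 gave 201 higher and 209 lower.

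The highest levels in the members, mitochondrially encoded and ribosomal protein genes aside, were not all of red cell genes. In library 1 Malat1, at 110260 CPM, Cst3, at 19634, and Meg3, at 16352, stood above every red cell gene. For Cst3 and Meg3 this leaned on single members, which held 66.3% and 62.7% of their UMIs. The median member held 1.5 and 2 UMIs of these, against 10.5 of Bpgm and 8.5 of Alas2. In library 2 Gm42418, a gene annotated over ribosomal RNA sequence and named here after its values were seen, stood first at 67811 CPM, 3.76 times the level of other barcodes, with a UMI in 230 of 230 members. Ttr, named further on among the lower genes, stood at 17798 CPM there. Of the red cell genes, Bpgm stood at 14164 CPM in library 1 (interval 12449 to 16049) and 18959 in library 2 (18313 to 19623), which is 697 times (591 to 820) and 763 times (702 to 831) the level of other barcodes. Per 1000000 of all UMIs the ratios of Bpgm were 133 and 53.5, so it was higher under either scaling. Alas2 stood at 12149 and 18189 CPM, with 15 and 81 UMIs in all other barcodes together, and its ratios were 15138 (8971 to 27530) and 6031 (4837 to 7616), or 2899 and 422 per 1000000 of all UMIs. The Alas2 ratio moved with the limit on globin. In library 2 it was 12633 at a share of at least 30%, 3395 at 75%, 2122 at 90%, and 20299 against other barcodes under 5% globin, and in library 1 it was 5615 at 90%. Barcodes under each limit counted among the others, so their Alas2 raised the level the members were set against. Members of 90% or more held Alas2 at 35421 CPM in library 1 and 25860 in library 2. Against the unchanged other barcodes their ratios were 44138 and 8575. Of the 81 Alas2 UMIs outside the members of library 2, 6 came from 4 barcodes with 5 to under 20% globin, 38 from 4 with 20 to under 45%, and 13 from the pair just outside the limit. Ftl1, the light chain of the iron store ferritin (chr7:45457944-45459884), reached 9155 and 19041 CPM and was 24.7 and 13.9 times higher, though its ratio was 0.973 per 1000000 of all UMIs in library 2. The median member held 5.5 Ftl1 UMIs in library 1 (0 to 17) and 13 in library 2 (0 to 46). Mkrn1, a ubiquitin ligase (chr6:39397804-39420462), reached 7370 and 13799 and was 137 and 202 times higher. Oaz1, an inhibitor of polyamine synthesis, reached 5527 and 10011 and was 21.7 and 20.2 times higher. Tpt1, a translationally controlled protein found in most cells, reached 5067 and 13011 and was 11.02 and 4.37 times higher, with a ratio of 0.306 per 1000000 of all UMIs in library 2. Fam220a reached 4721 and 6987 CPM and was 40.1 and 223 times higher. The ferritin heavy chain Fth1 was higher in library 1 (ratio 3.93, or 0.752 per 1000000 of all UMIs) and was not counted as higher in library 2 (2.09, interval 1.97 to 2.20).

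A further set was close to absent from the rest of the tissue. Ube2l6, a ubiquitin-conjugating enzyme (chr2:84798828-84810335), held 73 UMIs in the members of library 1 and 38 in the other 12282 barcodes, and 1297 and 235 in library 2. Its ratio was 2067 (1378 to 3146) and 865 (752 to 999). Isg20, an RNA exonuclease, had ratios of 1435 and 723. Slc4a1, the anion exchanger band 3, held 5 and 89 UMIs against 0 and 1, and 80% of those of library 1 came from 1 member. Trim10, an erythroid RING-finger protein, held 5 and 78 against 0 and 0, or at least 1794-fold and 4076-fold higher, taking 3 counts over all other barcodes as the floor for a count of 0. Apol11b held 8 UMIs against 0 in library 1 and 108 against 9 in library 2. Rsad2, known from the interferon response, was 366 and 167 times higher, and Cd24a, a surface protein of immature blood cells, 404 and 76.5 times. Fech, which puts iron into the haem ring, was 185 and 140 times higher, Fam46c 152 and 59.95 times, and Ube2c 1384 and 256 times.

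**Figure D2:**
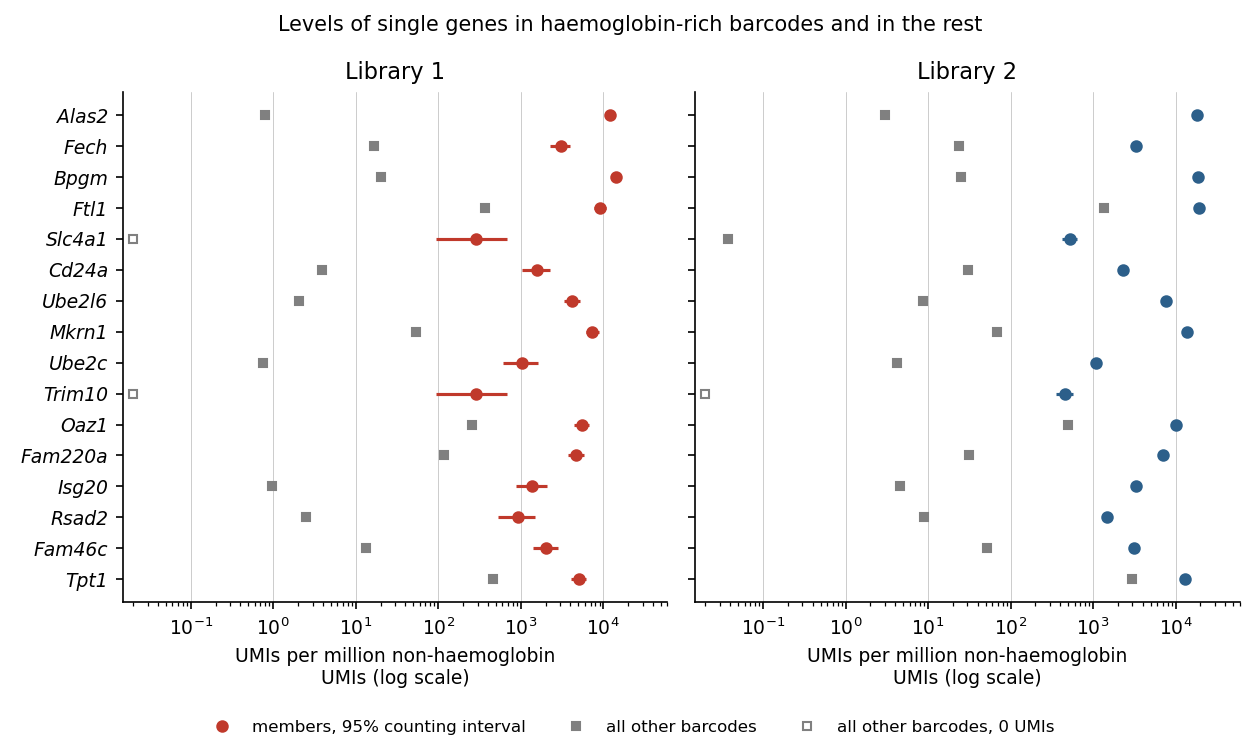
CPM, that is UMIs per 1000000 non-haemoglobin UMIs (x axis, log scale) of 16 named genes in the haemoglobin-rich barcodes (circles, lines for the 95% counting interval) and in all other barcodes (grey squares; open squares mark 0 UMIs). In both libraries each circle lies to the right of its square; of the genes drawn, Tpt1 has the narrowest gap in both, with ratios of 11.02 and 4.37, though it stood at 0.306 per 1000000 of all UMIs in library 2.

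The lists that follow group genes by role, and give for each the genes counted as higher or lower among those considered. Haem synthesis (14 genes) summed to 15834 CPM in the members and 362 in other barcodes of library 1, and to 22684 and 386 in library 2. In library 1, 3 of 6 considered genes were higher (Alas2, Fech and, on 3 UMIs, Urod) and 0 lower, with a median log2 ratio of 2.65. In library 2, 5 of 7 were higher and 0 lower, with a median of 3.80, Urod having a ratio of 0.476 per 1000000 of all UMIs. There, Tspo2, an erythroid membrane protein, also counted as higher, with 85 UMIs against 0 in other barcodes. Haem breakdown and export (6 genes) held Blvrb, a biliverdin reductase abundant in red cells, at 1324 and 1185 CPM and 68.0 and 20.8 times higher, while Hmox1, the haem oxygenase, and Blvra had 0 UMIs in the members of both libraries. The list had 1 of 2 considered genes higher in library 1 and 2 of 2 in library 2, with medians of 4.16 and 3.44. The second was Hebp1, a haem-binding protein, whose ratio was 0.417 per 1000000 of all UMIs.

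Iron handling (14 genes) had 6 of 9 considered genes higher and 0 lower in library 1, and 5 of 9 higher and 0 lower in library 2, with median log2 ratios of 3.04 and 2.71. Beside ferritin, these were Slc25a37, the mitochondrial iron importer mitoferrin 1 (40.2 and 78.5 times higher), Ncoa4, the receptor that delivers ferritin to autophagy (32.7 and 22.4 times), and the iron-sulphur cluster proteins Glrx5 (43.3 and 33.5 times) and Iscu (8.33 and 6.59 times, with 0.462 per 1000000 of all UMIs in library 2). Uptake genes had few UMIs. Tfrc held 0 and 14 UMIs, and Steap3, the iron reductase of erythroid endosomes, 0 and 0.

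Glycolysis and gas exchange (15 genes) split in the members. The list's level was 15776 CPM against 1439 in library 1 and 22117 against 2520 in library 2, most of it from Bpgm, at 14164 and 18959. Car2, a carbonic anhydrase, was also higher, 6.72 and 12.8 times, with 19.7% of its UMIs in library 2 from 1 member and a ratio there of 0.900 per 1000000 of all UMIs. The general enzymes of glycolysis were not among the higher genes. In library 2, Aldoa, Gapdh, Gpi1, Pgam1 and Eno1 were lower, so that 2 of 11 considered genes were higher and 5 lower, with a median of -1.94 beside -1.10 for all genes. In library 1, 2 of 9 were higher and 0 lower, with a median of -0.40 (0.18 with Eno1, at 0 UMIs, set at 3 counts), and Aldoa and Gapdh held 1 UMI each.

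Antioxidant genes and the globin chaperone formed a list of 12, of which 11 are in the files. Gpx1, a glutathione peroxidase, reached 3052 and 4034 CPM (69.7 and 18.5 times higher), and Prdx2, the main peroxiredoxin of red cells, 2130 and 3053 (17.0 and 18.2 times). Gclm, of glutathione synthesis, was 11.2 and 20.5 times higher. The list had 3 of 7 considered genes higher and 0 lower in library 1 (median 3.30), and 4 of 9 higher and 1 lower, Txn1, in library 2 (median -0.42). The fourth was the catalase gene Cat, with a ratio of 0.537 per 1000000 of all UMIs. A single member held 34.0% of the Gpx1 UMIs of library 1. Of 23 red cell membrane and skeleton genes, 14 had 0 UMIs in the members of library 1 and 2 had 0 in those of library 2. Epb41, protein 4.1 of the membrane skeleton, was 19.2 and 58.8 times higher, and it and Slc4a1 were among the genes counted as higher (4 of 10 in library 1, 4 of 8 in library 2, medians 0.81 and 2.95, the first 0.83 with genes at 0 set at 3 counts). So was Stom in library 1, on 2 UMIs. Sptb, Ank1 and Rhag, of the skeleton and the Rh complex, held 0 UMIs in library 1 and 7, 4 and 6 in library 2. Slc2a1, the glucose transporter, was lower in library 2, with 6 UMIs in the members.

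Ubiquitin and organelle clearance (18 genes) was led by Mkrn1, Ube2l6 and Ubb. The list summed to 25276 CPM in the members against 1340 in other barcodes of library 1, and to 51263 against 3763 in library 2. In library 1, 10 of 15 considered genes were higher and 0 lower (median log2 ratio 3.54), and in library 2, 12 of 14 were higher and 1 lower (median 4.15). Bnip3l, the receptor by which reticulocytes clear mitochondria, was 43.3 and 32.9 times higher. The autophagy proteins Gabarapl2 and Map1lc3b were 11.7 and 24.4 times, and 25.1 and 22.0 times higher. Ubb, a polyubiquitin gene, was 23.6 and 8.89 times higher (0.623 per 1000000 of all UMIs in library 2). The late erythroid list (14 genes, 13 in the files) had 5 of 8 considered genes higher in library 1 and 8 of 8 in library 2, with 0 lower in both and medians of 3.21 and 4.43. Beside Isg20 and Fam46c, it held Rnf10 (9.99 and 30.1 times higher) and the survival gene Bcl2l1 (8.83 and 12.9 times, with 0.904 per 1000000 of all UMIs in library 2). Epor, the erythropoietin receptor, had 0 UMIs in the members of both libraries.

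Several genes of earlier erythroid cells had few or 0 UMIs, though the erythroid transcription list as a whole was not low. The list (14 genes) stood at 864 CPM in members and 732 in other barcodes of library 1, and at 706 and 565 in library 2. Its 4 considered genes in each library had median log2 ratios of 0.76 and 0.44, beside 0.15 and -1.10 for all genes. Lmo2 was its only gene counted as higher, in library 1 on 6 UMIs. Klf1, Myb, Kit and Gfi1b had 0 UMIs in the members of both libraries, and Gata1 had 0 and 4. With 17368 and 171314 non-haemoglobin UMIs, the floor of 3 counts taken for a count of 0 stands at 173 and 17.5 CPM. The counting interval of a count of 0 is wider, reaching 212 CPM in library 1. Of the proliferation list (13 genes) Ube2c stood alone, at 1036 and 1086 CPM. Mki67, Top2a and Cdk1 held 0, 0 and 0 UMIs in the members of library 1 and 1, 1 and 0 in those of library 2, and Tubb5 was lower in library 2. Ube2c is known in dividing cells as a partner of the anaphase-promoting complex, and it held 18 of the 23 UMIs of the list in library 1 and 186 of 204 in library 2.

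**Figure D3:**
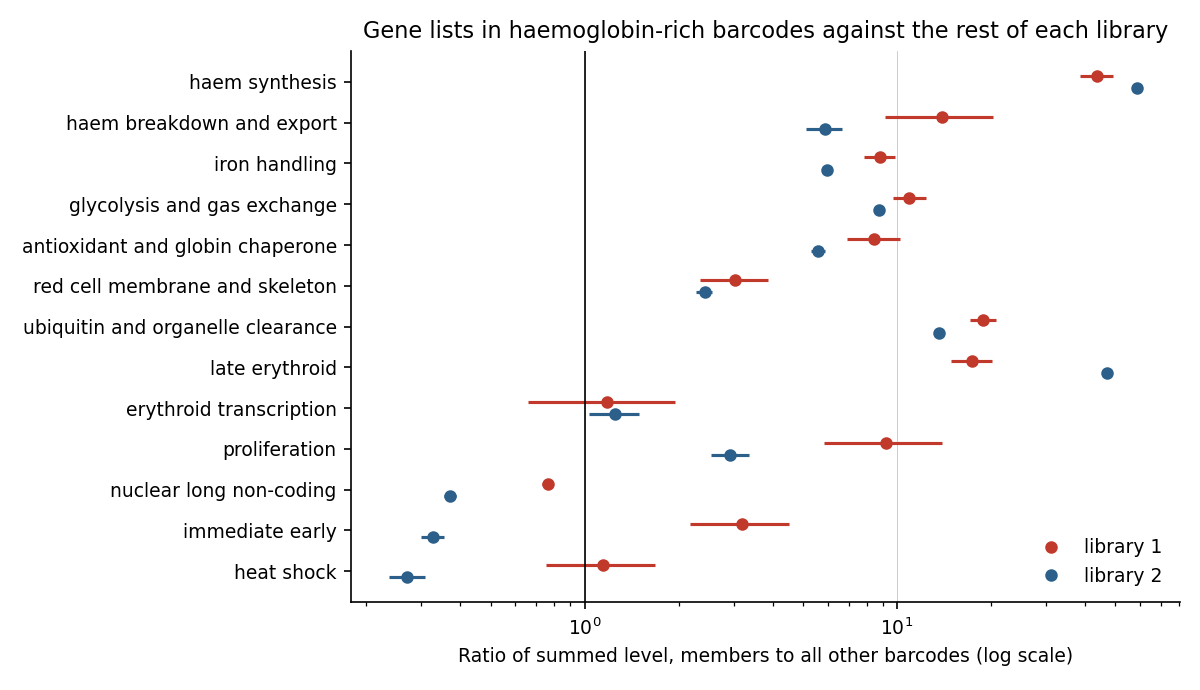
Ratio of the summed level of each gene list, haemoglobin-rich barcodes to all other barcodes in CPM (x axis, log scale), with its 95% counting interval, in library 1 (red) and library 2 (blue). Haem synthesis, ubiquitin and late erythroid lists lie to the right of 1 in both libraries; the immediate early list lies on opposite sides of 1 in the libraries, at 3.18 and 0.327.

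Nuclear and stress-linked RNA is given for each library. Malat1, a long non-coding RNA kept in the nucleus, stood at 110260 CPM in the members of library 1, with 14 to 403 UMIs in each of 24, and at 140184 in the other barcodes. In library 2 it stood at 10303 in members and 29308 in other barcodes, a ratio of 0.352 (0.335 to 0.368), and the median member held 2 UMIs. The 17 members of library 2 with 50 to under 75% globin held 1054 of its 1765 Malat1 UMIs, at 26309 CPM, while the 181 with 90% or more stood at 4173 CPM, a ratio of 0.142 (0.130 to 0.156). In library 1 the 10 members with 90% or more stood at 78714 CPM, a ratio of 0.562. The list of 5 nuclear long non-coding RNAs had 0 of 5 genes higher in either library and 1 lower, Malat1, in library 2 (medians -0.54 and -0.42). The immediate early list (15 genes, induced within minutes of a stimulus) stood at 1842 against 579 CPM in library 1, where Jund was the only gene counted as higher, with 42.9% of its 21 UMIs from 1 member. In library 2 it stood at 3210 against 9806, and 12 of 14 considered genes were lower, Fos, Junb and Egr1 among them (median -2.30). Heat shock genes (11) had 0 of 6 higher and 0 lower in library 1 (median -0.00139), and 7 of 9 lower in library 2 (median -1.93). In each library the members' values can be read only beside the other barcodes of that library, whose own levels of these lists were 579 and 9806, and 1302 and 4781 CPM.

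Few genes were counted as lower in both libraries, and most genes considered in library 1 could not be, given the few UMIs of its members. Of the 10 genes with the lowest ratios by the rule, only Ttr (0.0658 and 0.468) and Zbtb20, a transcription factor (0.103 and 0.274), were counted as lower in each. At a globin share of at least 30%, the ratio of Ttr in library 2 was 1.02. Apoe, the apolipoprotein made by astrocytes, had ratios of 0.363 and 0.246. Mtdh stood at 0.140 and 0.317, Snrnp70 at 0.405 and 0.429, Mir99ahg at 0.273 and 0.462 and Tnrc6c at 0.198 and 0.385. Nfib and Slc6a6 had 0 UMIs in the members of library 1 and ratios of 0.240 and 0.116 in library 2. In library 1 these ratios rest on 17 or fewer UMIs in the members.

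Mitochondrially encoded RNA took 2.52% of the members' non-haemoglobin UMIs and 3.13% of those of other barcodes in library 1. In library 2 it took 24.0% and 11.8%, and 3 of 15 considered mitochondrial genes were higher and 0 lower. The median member held 11 mitochondrial UMIs in library 1 and 127.5 in library 2. Ribosomal protein genes (84) took 2.82% against 1.57% in library 1, with 2 of 75 considered genes higher, and 6.73% against 8.53% in library 2, with 2 of 79 higher and 10 lower. Over all genes considered, 3.39% were higher in library 1, and 7.52% were higher and 14.2% lower in library 2. The median log2 ratios of the ribosomal protein genes were 0.75 and -0.84, beside 0.15 and -1.10 for all genes.

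Markers of other cell types were counted in the members, since a barcode can hold more than 1 cell or free RNA, and no doublet caller was run. Ttr, the transthyretin of the choroid plexus, had a UMI in 230 of 230 members of library 2 (median 10, highest 523). It was as common in microglia-marked barcodes of that library, at 99.7%, and it made up 3049 of the 3100 choroid plexus marker UMIs in the members. In library 1, Ttr was in 7 of 24 members, on 9 UMIs. Microglia markers (8 genes) held 202 UMIs in library 1, in 7 of 24 members with 54.5% from 1 of them, and 1393 in library 2, in 118 of 230 members with 22.0% from 1. Neuron markers held 313 UMIs in 19 of 24 members, with 58.5% from 1 of them, and 181 in 65 of 230, with 13.3% from 1. Meg3 alone made up 284 of the 313. Astrocyte markers held 12 and 128 UMIs, oligodendrocyte markers 55 and 139, endothelial markers 0 and 45, and pericyte or smooth muscle markers 2 and 31. Markers of other blood cells had few UMIs: platelet markers 1 and 3, neutrophil 0 and 18, monocyte 1 and 3, and lymphocyte 1 and 16 UMIs, with Pf4, Ppbp, Camp, Cd3e and Cd79a at 0 in both. In library 1 other barcodes held these lists at 27.3, 1.02, 38.0 and 43.7 CPM. There 1 UMI in the members is 57.6 CPM, so these counts cannot show a lack. In library 2 the ratios to other barcodes were 0.189, 0.0600, 0.322 and 0.604. The part of other cell types in the members' levels was not tested.

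Microglia markers went with a low globin share in both libraries, while the other marker lists did not all do so. In library 2 the 17 members with 50 to under 75% globin held microglia markers at 29404 CPM, the 32 with 75 to under 90% at 1921, and the 181 with 90% or more at 1586. In library 1 the 7, 7 and 10 members of these ranges held 17443, 1322 and 328. Neuron markers stood at 24792, 5950 and 4920 CPM in these ranges of library 1, but at 99.8, 2708 and 1100 in library 2. In library 1 these values lean on 1 member, which held 58.5% of the neuron marker UMIs, and on Meg3. Cst3, a secreted protease inhibitor abundant in microglia, is an example of a gene that ran with the microglia markers. In library 1 it stood at 19634 CPM, with 66.3% of its UMIs from 1 member, and its ratio of 2.23 was 0.931 without that barcode. Alas2 ran the other way in the same unit, at 3365, 21488 and 35421 CPM in these ranges of library 1 and at 2521, 7190 and 25860 in library 2. Per 10000 adult globin UMIs, which share their counts with the value that sets these ranges, Alas2 stood at 25.4, 28.6 and 30.3 in library 1, and at 16.1, 13.6 and 13.6 in library 2. Setting aside the 7 and 32 members with 3 or more UMIs of any marker list but choroid plexus and neuron, a choice made after seeing the data, left 155 genes higher in library 1 and 206 in library 2, and Alas2 was then 16995 and 7832 times higher than in other barcodes. The number of lower genes in library 2 was 693 without them.

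Red cell transcripts followed the globins from barcode to barcode. Spearman's rho with adult globin UMIs was 0.845 for Alas2, 0.817 for Bpgm, 0.751 for Mkrn1 and 0.702 for Ftl1 over the 24 members of library 1, and 0.856, 0.889, 0.848 and 0.806 over the 230 of library 2. For Ttr it was 0.0496 and 0.160, for Malat1 -0.209 and 0.0253, and for mitochondrially encoded UMIs 0.620 and 0.166. For all non-haemoglobin UMIs together it was 0.343 and 0.618. These are descriptions: all barcodes of a library share its preparation, and barcodes with more globin tended to hold more other RNA as well.

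The members were not alike in their beta globins, a split the choice of barcodes did not use. Hbb-bt made up 16.6% of the beta globin UMIs of library 1 (members 0.334 to 21.9%, median 17.2%) and 17.3% of those of library 2 (0 to 27.2%, median 16.3%). In library 2 its share fell into a low and a high cluster. It was under 5% in 68 members, 5 to under 15% in 41 and 15% or more in 121, ranges that were set after the distribution had been seen. Library 1 held 4, 5 and 15 such members. The low members of library 2 were shallow, with a median of 2745.5 UMIs, against 9735 and 15430 in the middle and high ranges. Their median alpha share was 42.2%, against 37.1% and 36.9%. Depth and the share of Hbb-bt went together (rho 0.836 over 230 members).

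**Figure D4:**
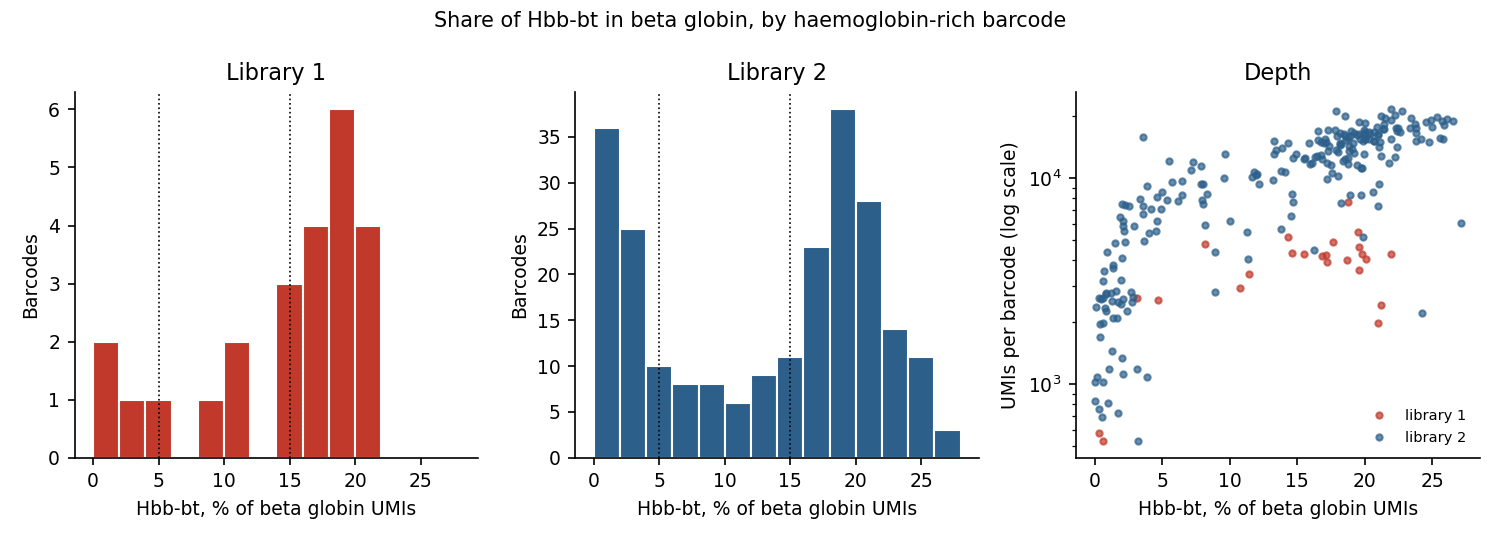
Left and middle, number of haemoglobin-rich barcodes of each library by the share of Hbb-bt in their beta globin UMIs (x axis, bins of 2 percentage points; dotted lines at 5 and 15%). Right, UMIs per barcode (log scale) against that share; library 2 has a group under 5% and another around 20%, and the first holds the shallow barcodes.

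Along the share of Hbb-bt, red cell transcripts stood in a different balance with globin in library 2. Bpgm stood at 1.46 UMIs per 10000 adult globin UMIs in the low range (interval 1.01 to 2.05), 8.54 in the middle and 17.2 in the high range (16.6 to 17.8). Mkrn1 stood at 0.974, 6.00 and 12.6. These are descriptions, since the ranges were set on globin UMIs after they had been seen, and the intervals cover counting error only. Alas2 differed less, at 8.10, 12.8 and 14.6, and Ube2l6 stood at 3.59, 5.27 and 6.06. Ftl1 was near level at 13.1, 14.9 and 14.3. Gpx1 stood at 0.177, 1.23 and 3.80. Other RNA ran the opposite way. Mitochondrially encoded UMIs stood at 426, 273 and 128 per 10000 globin UMIs, Ttr at 32.8, 25.7 and 8.18, and Tpt1 at 18.6, 9.21 and 8.73. A single member of the middle range, with Hbb-bt at 14.7%, held 523 Ttr UMIs, where the median member of library 2 held 10.

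For Bpgm, Mkrn1 and Alas2 the same order was seen at like depth. Among members of 5000 to under 10000 UMIs (19 low, 19 middle and 9 high, with medians of 7072, 7850 and 8247 UMIs), Bpgm stood at 1.70 (1.05 to 2.60), 3.80 and 15.95 (13.0 to 19.3) per 10000 globin UMIs. Mkrn1 stood at 1.30, 2.61 and 11.2, and Alas2 at 8.27, 13.7 and 17.3, while Ftl1 stood at 12.8, 12.2 and 12.2. Other RNA followed no such order there: Ttr stood at 15.97, 52.2 and 14.3, Tpt1 at 9.97, 12.01 and 9.72, Ube2l6 at 3.73, 5.15 and 3.49, and mitochondrially encoded UMIs at 270, 456 and 210. The member with 523 Ttr UMIs is among the 19 middle members there, so the middle value of Ttr leans on that barcode. With each member thinned to 2000 UMIs, Bpgm had a UMI in 16% of 50 low, 61.0% of 41 middle and 92.6% of 121 high members, after 18 low members were left out as too shallow, and in 26.5%, 90.2% and 100% unthinned. Alas2 had one in 58%, 87.8% and 91.7%, and Ftl1 in 82%, 92.7% and 90.9% of the thinned members. In library 1, Bpgm stood at 10.7 (3.46 to 24.9), 21.4 and 39.1 (34.0 to 44.8) and Alas2 at 8.53, 22.7 and 32.3 in the 4, 5 and 15 members of the ranges, the first of which rests on 5 and 4 UMIs. Within 1 pool these members may come from any of 3 mice, which the files do not tell apart.

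**Figure D5:**
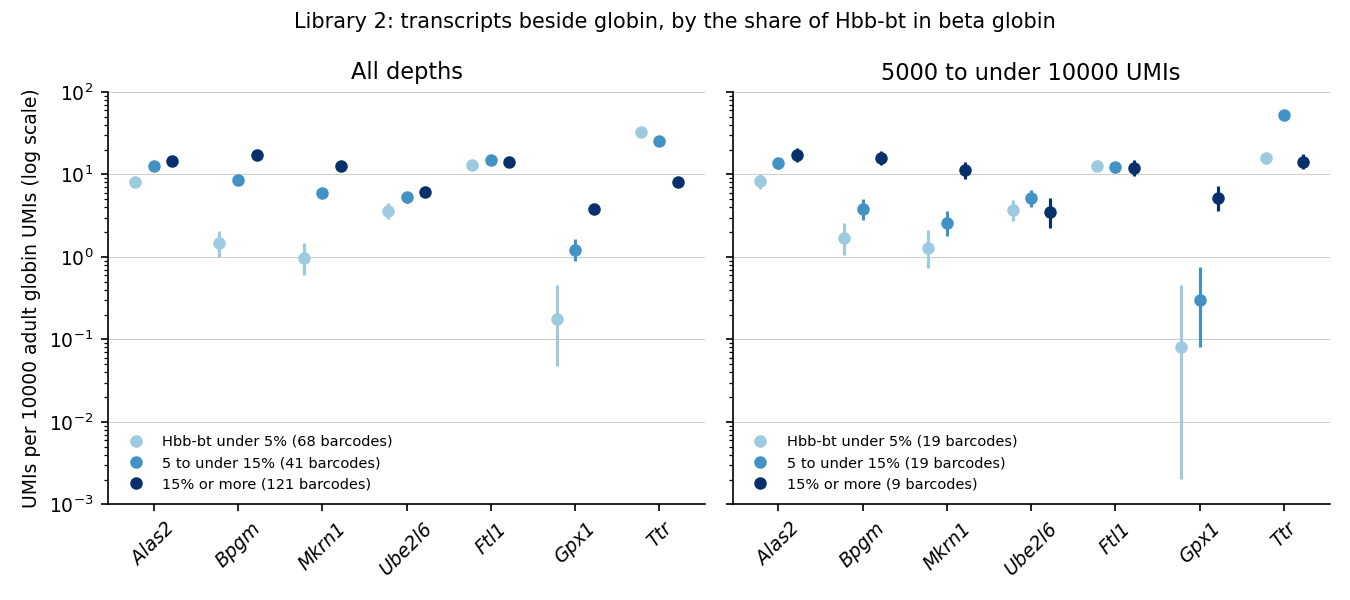
UMIs per 10000 adult globin UMIs (y axis, log scale) of 7 genes in library 2, for members with a low, middle or high share of Hbb-bt in beta globin, at all depths (left) and at 5000 to under 10000 UMIs (right); lines are 95% counting intervals. Bpgm, Mkrn1 and Gpx1 stand in order from low to high at both, Ftl1 stays near level, and Ttr is lowest in the high range. In both panels the middle value of Ttr includes 1 member with 523 Ttr UMIs.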

How the data were processed

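The data are 2 single-cell gene expression libraries of mouse hippocampus. Per the file headers and values, the authors deposited whole-number counts of UMIs for 41605 genes in each cell barcode, with no normalization. Per the submitters' processing notes these counts came from Cell Ranger 3.0.1 and GRCm38.p5, and the labels name no group for either library. Library totals were 18783691 and 29356086 UMIs. Gene positions were taken from the GENCODE annotation of GRCm38, and promoter sequences were matched by symbol to RefSeq on GRCm38.p6.

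Members and all other barcodes were summed within each library with Python 3.11.15, numpy 2.4.6, scipy 1.17.1 and pandas 2.3.3, and transcripts were aligned with biopython 1.88. Levels have exact Poisson intervals, ratios exact intervals from the conditional binomial, and shares of barcodes exact Clopper-Pearson intervals. Median log2 ratios add 1 CPM to both levels. The ratio step was tested on simulated data. Those data held counting error only, so that test does not cover spread between members. Microglia-marked barcodes held at least 5 UMIs of the 8 microglia markers, making up at least 1% of all their UMIs. No doublet caller was run, since globin-rich droplets were taken whole, and members with 3 or more UMIs of another cell type's markers were counted instead. The files hold no map from barcodes to mice.

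Genes were named by rule: the 12 highest levels, the 15 highest and 10 lowest ratios by the weaker library, up to 6 per list by level, list members at 0, and all haemoglobins and given markers; further genes were named where a list's count turned on them. Some genes that the rule names, or that lists count, are not reported here by name. The members and the lists were chosen with earlier results of these data known. Ratios were recomputed with other globin shares, depths, denominators, level filters and folds, and without members that held other cells' markers.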

Additional observations from a re-analysis of the deposited data

How the results depend on the processing

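No paired analysis was possible because no label gives either library a group or a replicate number, and no value here comes from a test. Of 3645 ratios of named genes recomputed under the alternatives, 3353 kept their direction and side of 2-fold, 156 came past it, 116 fell short of it and 20 changed direction, and 10 more had no ratio, with 0 UMIs in other barcodes. A globin share of at least 30% gave 1 lower gene in library 1 and 165 in library 2, with ratios of 1.02 for both Ttr and Klf2 in library 2. At 75% or more 738 genes of library 2 were lower, and at 90% or more 706, with 10 members left in library 1. Under these limits the barcodes left out counted among the others. Cst3 in library 1 had a ratio of 0.355 at 75%, 0.410 at 90%, 0.428 per 1000000 of all UMIs, 0.247 without members holding other cells' markers and 0.931 without the member with the most non-haemoglobin UMIs. Tspo2 in library 1, on 1 UMI, had 0 at 90% and without members holding other cells' markers. Per 1000000 of all UMIs, library 1 had 37 higher and 924 lower genes and library 2 had 22 and 1467, and Fth1 in library 1 stood at 0.752. In library 2 Ftl1 then stood at 0.973, Tpt1 at 0.306, Urod at 0.476, Hebp1 at 0.417, Iscu at 0.462, Cat at 0.537, Car2 at 0.900, Ubb at 0.623, Ypel3 at 0.437 and Bcl2l1 at 0.904, because globins fill the denominator. Without mitochondrial UMIs 209 genes of library 2 were lower. No filter on level gave 285 higher genes in library 2, while a mean of at least 200 CPM gave 81 higher in library 1 and 122 lower in library 2. A bound past 4-fold gave 83 higher and 1 lower in library 1 and 38 lower in library 2. Leaving out members with 3 or more UMIs of any other cell type's list left 9 and 1 members, too few for ratios. Sparing choroid plexus and neuron lists from that rule, chosen after seeing the data, gave 7 lower genes in library 1 and 693 in library 2. For the other moved values the cause was not tested. With 24 members in library 1, the counting interval of a gene at 0 UMIs reaches 212 CPM there.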

Other observations

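Set side by side as values of 2 unassigned libraries, alpha globins were 26.1% of adult globin UMIs in library 1 (exact counting interval 25.8 to 26.4%) and 37.6% in library 2 (37.5 to 37.7%). How reads that fit both alpha genes were counted was not checked, so these shares may be too low. Among members of 500 to under 5000 UMIs these shares were 26.2% and 41.0%, and in the few globin UMIs of all other barcodes 31.4% and 37.4%. Malat1 was seen in 24 of 24 members of library 1, with at least 14 UMIs in each, and in 198 of 230 of library 2. Mitochondrially encoded RNA took 2.52% and 24.0% of the members' non-haemoglobin UMIs, against 3.13% and 11.8% in the other barcodes of the same libraries.

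Genes known from other blood cells left few counts in the members, which in library 1 hold too few UMIs to show a lack. Library 2 held 2010 Camp UMIs in its other barcodes and 0 in its members. Hbb-bt was 8.39% of the beta globin UMIs found outside the members of library 1 and 15.6% of those outside the members of library 2.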
